A study of Homo sapiens with 2 samples.

Results

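The NRF2 antioxidant target genes examined here are 9 genes: GCLM, GCLC, SLC7A11, SRXN1, TXNRD1, NQO1, ME1, HMOX1 and OSGIN1. They serve glutathione synthesis, the reduction of thioredoxin and quinones, peroxiredoxin repair, NADPH supply and heme breakdown, except OSGIN1, which encodes a growth inhibitor. The rule takes the 9 genes by name and uses no measured value, although they were named with earlier results of these data known. All 20 probe sets whose platform annotation gives exactly 1 of these symbols were taken, so that 9 of the 19775 genes named by a single symbol on the array were described. The array study used HCT116, an established human colorectal carcinoma line, and asked what follows when JMJD1A (KDM3A) and JMJD1B (KDM3B), demethylases of lysine 9 of histone H3, are depleted. Cells of the control group received a control siRNA and cells of the other group siRNAs against JMJD1A and JMJD1B, in both cases by lipid transfection, with total RNA taken 2 days later. Their arrays are called the control array and the treated array. Each group was 1 array of 1 sample, so the values carry no replicate error and no test, and the number of arrays limits their precision.

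NRF2, encoded by NFE2L2, is a transcription factor that is held low in unstressed cells because KEAP1 presents it to a CUL3 ubiquitin ligase. Oxidants and electrophiles modify KEAP1, NRF2 then accumulates, pairs with a small MAF protein and binds antioxidant response elements near its target genes, from which BACH1 can displace it. The 9 genes serve different arms of that response, and several also answer to other factors, such as ATF4 for SLC7A11 and BACH1 for HMOX1. Protein levels, NRF2 binding and oxidants were not measured here.

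Some of these elements lie close to the transcription start, and they are shown first because they are the feature by which such genes are usually recognised. RefSeq promoter windows of build GRCh38.p14, which run from 250 bases before to 50 bases after a start, were matched for 7 of the 9 genes, all but HMOX1 and SLC7A11, with 8 windows in all because TXNRD1 has 2. The element's core, TGACNNNGC, was searched on both strands. It was found 6 times, in the windows of GCLM, ME1 and TXNRD1, while those letters were not in the windows of GCLC, NQO1, OSGIN1 or SRXN1. Elements farther from a start were not searched for, so a window without the core does not mean a gene without an element. Across all 35116 RefSeq windows of this length 13.3% hold the core, so a match is common and describes the sequence only. Counted by gene, 16.1% of all genes with a window and 19.7% of the measured ones hold it in any window, beside 3 of 7 here. The 250 bases before the start of GCLM, the gene with the lowest ratio below, and of the first TXNRD1 start, the gene with the highest, are shown 5′ to 3′ on the strand of the gene, with the core in capitals. In GCLM the capitals are the core read on the opposite strand. A TXNRD1 core that spans the start is not marked in this stretch.
GCLM, chr1:93909431-93909680, minus strand: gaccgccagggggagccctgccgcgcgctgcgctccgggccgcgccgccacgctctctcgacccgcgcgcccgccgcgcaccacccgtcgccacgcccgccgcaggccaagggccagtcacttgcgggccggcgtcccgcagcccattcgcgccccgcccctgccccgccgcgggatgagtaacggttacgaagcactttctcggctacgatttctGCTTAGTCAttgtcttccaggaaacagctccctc
TXNRD1, chr12:104215529-104215778, plus strand: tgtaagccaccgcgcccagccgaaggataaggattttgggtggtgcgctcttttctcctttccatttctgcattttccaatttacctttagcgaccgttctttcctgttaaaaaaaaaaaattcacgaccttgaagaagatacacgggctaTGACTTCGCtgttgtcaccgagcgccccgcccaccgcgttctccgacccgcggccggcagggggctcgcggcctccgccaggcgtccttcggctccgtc
The 6 cores are compared next with 10 bases on either side, each on the strand where it reads as TGACNNNGC. The position after each name is that of the core's bases on the gene's strand, counted from the start site.
GCLM, -34 to -26, chr1:93909446-93909474, plus strand: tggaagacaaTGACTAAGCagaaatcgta
TXNRD1 first start, -99 to -91, chr12:104215670-104215698, plus strand: acacgggctaTGACTTCGCtgttgtcacc
TXNRD1 first start, -8 to 1, chr12:104215761-104215789, minus strand: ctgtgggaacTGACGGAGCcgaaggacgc
TXNRD1 second start, -102 to -94, chr12:104286920-104286948, minus strand: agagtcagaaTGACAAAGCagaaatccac
ME1, -137 to -129, chr6:83431170-83431198, minus strand: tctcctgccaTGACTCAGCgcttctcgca
ME1, 12 to 20, chr6:83431022-83431050, plus strand: gctgctggggTGACGGTGCtgactgcagc
The ME1 core at -137 also contains TGACTCA, the AP-1 site, which overlaps it. GCLM and TXNRD1 both hold a core and stood at opposite ends of the 9 genes. Among 10195 measured genes with a window, 8.87% of the 2007 with a core and 8.34% of the others were lower by 2-fold or more on the treated array.

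The values are linear MAS5 signals of 54675 probe sets on each array, with medians of 52.2 and 55.4. A log2 ratio below is the treated array minus the control array. A probe set counted as measured where its mean log2 signal reached a signal of 50.4, the median over the non-control probe sets, and a gene was represented by its brightest measured probe set. The arrays are named by their labels: KDM3B read 3031 on the control array and 496 on the treated array, 6.11-fold lower, whereas KDM3A read 3884 and 3323, a log2 ratio of -0.22. Between the 2 brightest measured probe sets of a gene the log2 ratio had an SD of 0.54 over 6192 genes. This SD reflects the behaviour of probes and not of samples, and dimmer probe sets of a gene did not enter it. The 18 hybridization controls, bacterial and phage transcripts that the array maker's procedure adds in equal amounts, were higher on the treated array by a median of 0.61, so that levelling the arrays on them lowers every ratio by that amount and moves the median of all measured genes from 0.04 to -0.57. Of 8 markers of colorectal epithelium 7 were measured, with log2 ratios from -0.46 (CDX2) to 1.26 (KRT19), and CDH1 (2.16-fold) and KRT19 (2.39-fold) passed 2-fold upward. EPCAM, KRT8 and KRT18 read 13794 to 27324 on the control array and 19039 to 33559 on the treated array, whereas the intestinal markers CDX2 (108 and 78.2) and VIL1 (86.2 and 104) read near the filter. Of other cells' markers with a single symbol, 2 of 6 (fibroblast), 1 of 3 (leukocyte, 5 listed) and 1 of 4 (endothelium) were measured. The summed signals of these markers, measured or not, were 475 and 772, 59.1 and 86.9, and 152 and 231 on the control and the treated array. Their part in the results was not tested.

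Of the 9 genes 5 were lower on the treated array by 2-fold or more, and the others were under 2-fold. GCLM, SLC7A11, HMOX1, SRXN1 and OSGIN1 were 2.14-fold to 3.27-fold lower, whereas ME1, GCLC and NQO1 lay within 1 probe-set SD of no difference and TXNRD1 was 1.58-fold higher. All 9 were measured, with 5 lower by 2-fold or more and none higher by as much, beside 8.53% of 12561 measured genes lower and 8.91% higher. Their median log2 ratio was -1.10, a 2.14-fold lower signal, beside a median of 0.04 over all measured genes. That median is the value of OSGIN1, the dimmest of the 9, whose single probe set ended close to the filter. At the level of probe sets 17 of 20 were measured. Of these, 8 were lower by 2-fold or more and none higher by as much, beside 10.4% lower and 8.88% higher among 23360 measured probe sets with 1 symbol. A ratio below 0 was found for 14 of the 17, where the median ratio over those 23360 was -0.005. Several of the 17 belong to the same gene. With the arrays level on the hybridization controls the same 5 genes passed 2-fold downward and none upward, where 27.7% of all measured genes passed it downward and 2.15% upward. By the mean of each gene's measured probe sets it was again these 5 and none, beside 7.84% and 7.79%.

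**Figure D1:**
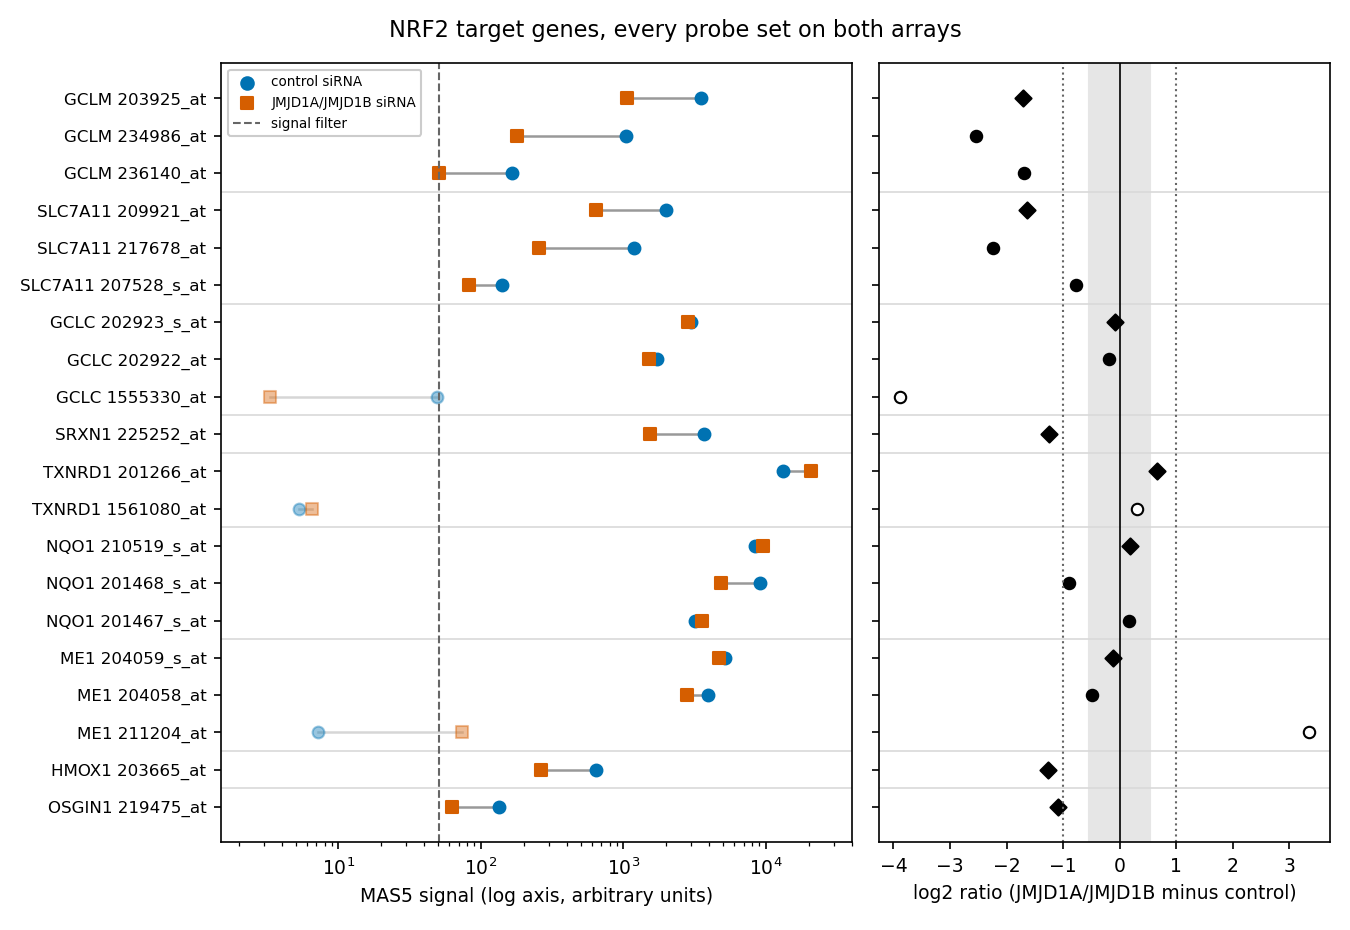
The left panel plots the MAS5 signal (log axis) of each of the 20 probe sets on the control array (circles) and the treated array (squares), with the signal filter of 50.4 as a dashed line and the 3 probe sets that were not measured in pale colours. The right panel plots the log2 ratio of each, with diamonds for the probe set that represents its gene, open circles for those not measured, a grey band of 1 probe-set SD (0.54) and dotted lines at 2-fold. The measured probe sets of GCLM, SLC7A11, SRXN1, HMOX1 and OSGIN1 all lie left of 0, while those of GCLC lie near it.

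The genes for the subunits of the ligase that starts glutathione synthesis differed in their ratios. GCLM encodes the modifier subunit of glutamate-cysteine ligase, the enzyme of the first and rate-limiting step, and its 3 probe sets were all lower on the treated array. Probe set 203925_at read 3488 on the control array and 1065 on the treated array, a log2 ratio of -1.71. Probe set 234986_at read 1038 and 178, a log2 ratio of -2.54, and 236140_at read 164 and 50.9, a log2 ratio of -1.69. All 3 lie in 1 direction, and 236140_at ended just above the filter. All 3 probe sets at least 2-fold lower was a pattern shared by 30 of the 1660 genes with exactly 3 measured probe sets (1.81%). By its brightest probe set GCLM ranked 209th from the lowest of the 12561 genes.

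GCLC encodes the catalytic subunit of the same ligase, and its measured signals were nearly equal on both arrays. The brighter probe set, 202923_s_at, read 2994 and 2844, a log2 ratio of -0.07, and 202922_at read 1718 and 1512, a log2 ratio of -0.18. Both lie inside the probe-set SD of 0.54, and both would stand outside it, at -0.68 and -0.80, with the arrays level on the hybridization controls. Another probe set, 1555330_at, was not measured, with signals of 49.0 and 3.31. The ratios of the subunits differed by 1.64 on the log2 scale, a 3.11-fold difference in relative change that no scaling by 1 factor per array can alter. It sets changes against each other and not the levels of the subunits.

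SLC7A11 encodes xCT, the light chain of the cystine/glutamate exchanger that brings in cystine for glutathione. Its 3 probe sets were lower to different degrees. Probe set 209921_at read 1990 and 637, a log2 ratio of -1.64. Probe set 217678_at read 1196 and 254, a log2 ratio of -2.23, and the dim 207528_s_at read 142 and 83.0, a log2 ratio of -0.77. The 3 ratios span 1.46 on the log2 scale. Of the 1660 genes with 3 measured probe sets 16.9% spanned at least as much.

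In the thioredoxin arm the reductase and the peroxiredoxin repair enzyme stood on opposite sides of 0. TXNRD1 is the cytosolic thioredoxin reductase, a selenoprotein. Its probe set 201266_at read 13098 on the control array and 20730 on the treated array, a log2 ratio of 0.66. The 268 genes with a mean signal at or above that of TXNRD1 had a median ratio of 0.53, and 91 of them had a ratio at least as high. With the trend of ratio on signal removed by loess TXNRD1 stood at 0.30, with quantile normalization at 0.32 and on the hybridization control scale at 0.05. The other TXNRD1 probe set, 1561080_at, was not measured, at 5.30 and 6.55. SRXN1, sulfiredoxin, which restores hyperoxidised peroxiredoxins, has 1 probe set, and it read 3651 and 1537, a log2 ratio of -1.25 and a 2.38-fold lower signal. The ratios of TXNRD1 and SRXN1 differed by 1.91 on the log2 scale.

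NQO1 encodes the quinone reductase that is the most widely used marker of NRF2 activity, and its 3 probe sets disagreed. Probe set 210519_s_at read 8332 and 9518, a log2 ratio of 0.19, and 201467_s_at read 3159 and 3547, a log2 ratio of 0.17. Probe set 201468_s_at read 9055 and 4846, a log2 ratio of -0.90. NQO1 was therefore slightly higher by its representative probe set, but it stood at -0.18 by the mean of the 3, at -0.02 after loess and at -0.42 on the hybridization control scale, and no direction can be given. Disagreement of that size, 1.09 on the log2 scale, was reached or passed by 31.1% of genes with 3 measured probe sets.

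ME1, the cytosolic malic enzyme that yields NADPH, read 5131 and 4720 by 204059_s_at, a log2 ratio of -0.12. Its second measured probe set, 204058_at, read 3934 and 2812, a log2 ratio of -0.48. Both are below 0 and inside the probe-set SD on the deposited scale. On the hybridization control scale they would be -0.73 and -1.10.

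HMOX1 and OSGIN1 were lower, each by a single probe set. HMOX1, heme oxygenase 1, which opens the heme ring and releases iron, carbon monoxide and biliverdin, read 638 on the control array and 265 on the treated array, a log2 ratio of -1.26 and a 2.40-fold lower signal. OSGIN1, a growth inhibitor induced by oxidative stress, read 133 and 62.4, a log2 ratio of -1.10 and a 2.14-fold lower signal. OSGIN1 ended close to the filter and stood at -0.81 with a pseudocount of 32 added to each signal, under 2-fold. HMOX1 ranked 603rd, SRXN1 632nd and OSGIN1 879th from the lowest of the measured genes, so each had many genes below it.

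**Figure D2:**
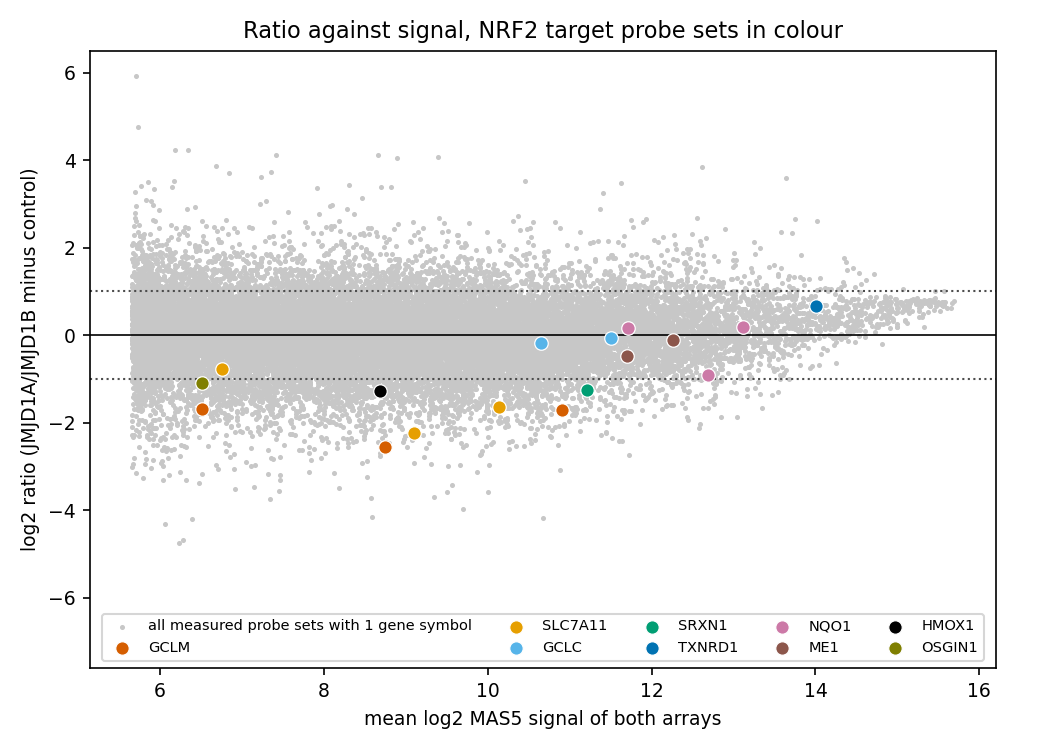
The plot sets the log2 ratio of every measured probe set with 1 gene symbol (grey, 23360) against its mean log2 MAS5 signal, with the 17 measured probe sets of the NRF2 target genes in colour and dotted lines at 2-fold. The GCLM probe sets and the brighter SLC7A11 probe sets lie low in the grey cloud, SLC7A11 207528_s_at lies higher, at -0.77, and TXNRD1 lies at the bright end, where most grey points are above 0.

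**Figure D3:**
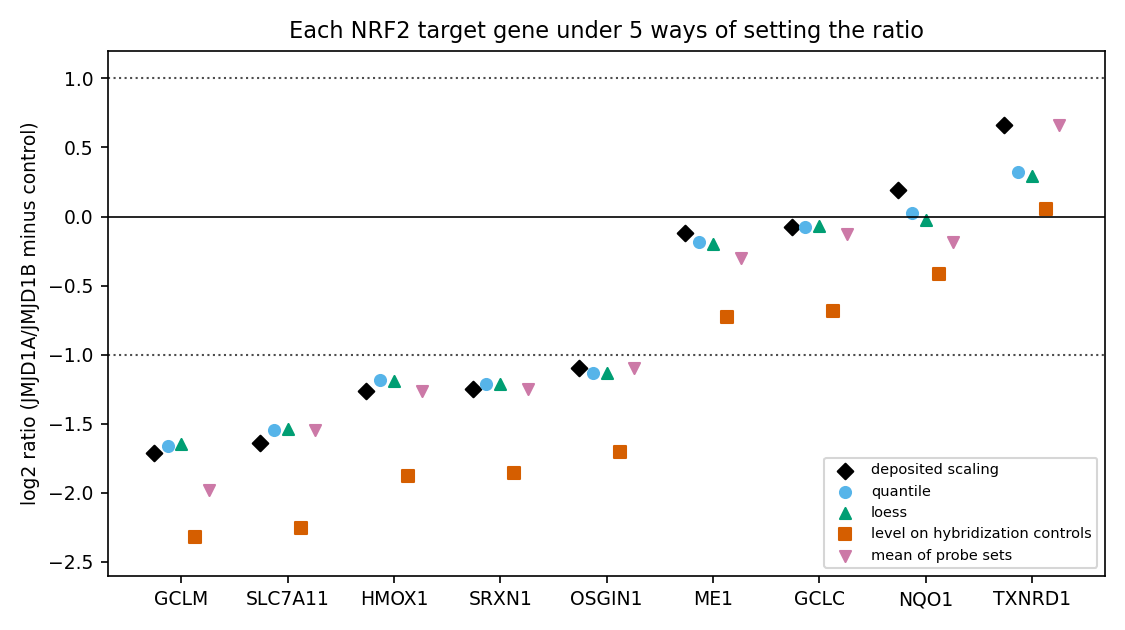
The plot gives the log2 ratio of each of the 9 genes on the deposited scale, after quantile or loess normalization, with the arrays level on the hybridization controls, and by the mean of its measured probe sets, with dotted lines at 2-fold. GCLM, SLC7A11, HMOX1, SRXN1 and OSGIN1 stay below -1 in all 5, TXNRD1 stays above 0, and NQO1 lies on both sides of 0.

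The genes that control NRF2 were examined from a fixed list of 15, of which 13 were measured. By 2-fold or more 3 of these were lower and 1 was higher, beside 8.53% lower and 8.91% higher among all measured genes. A ratio below 0 was found for 11, and the median was -0.41, beside a median of 0.04 over all measured genes. Levelled on the hybridization controls, 7 of the 13 would be lower by that much and none higher, beside 27.7% and 2.15%. NFE2L2 itself was 2.08-fold lower: 201146_at read 7328 and 3524, a log2 ratio of -1.06, and the dim probe sets 1567015_at and 1567013_at gave -1.09 and -0.71. KEAP1, the sensor that holds NRF2 low, was also lower, at 3043 and 1330, a log2 ratio of -1.19. BACH1, the repressor that competes for the same elements and acts strongly at HMOX1, was level at 1637 and 1548, a log2 ratio of -0.08. The small MAF partners differed, with MAFG 2.31-fold lower and MAFF 2.18-fold higher. The log2 ratios of the MAFG probe sets were -1.21 and -2.02, and those of MAFF 1.13 and 1.03. These are transcript signals, and how much NRF2 protein the cells held was not measured.

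Of other glutathione enzymes and transporters 28 were measured, of which 3 passed 2-fold upward and 3 downward, shares near the background of 8.91% and 8.53%, and the list median was 0.09. CHAC2 and CHAC1, which break glutathione down, were 4.75-fold and 2.60-fold lower, the latter ending at a signal of 51.9. SLC3A2, the heavy chain that carries xCT to the membrane, read 2334 and 917 and was 2.55-fold lower. GLRX, glutaredoxin 1, read 5149 and 20568 and was 3.99-fold higher (probe sets at 2.00 and 2.60 on the log2 scale), and HAGH and GSTO1 were 2.14-fold and 2.03-fold higher. SLC3A2, HAGH and GSTO1 were added to the named genes after their values were seen. GSS, glutathione synthetase, which takes the step after GCLC and GCLM, was under 2-fold at 0.18, and GSR, glutathione reductase, at 0.45, both also chosen after their values were seen. GSTO1 was under 2-fold after loess, at 0.63. On the hybridization control scale 1 of the 28 would pass 2-fold upward and 6 downward, beside 2.15% and 27.7% of all measured genes.

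Of 20 measured genes of the thioredoxin and peroxiredoxin system 2 passed 2-fold upward, a share near the 8.91% of all measured genes, and none downward (8.53%), and the median was 0.35. SESN1 was 2.04-fold higher, and MSRB3 2.17-fold by its brightest probe set, with its 5 probe sets between -0.93 and 1.12. On the hybridization control scale the median would be -0.26, none would pass 2-fold upward and 2 would downward, beside 2.15% and 27.7%. Among 13 measured genes of NADPH supply only TKT, the transketolase of the pentose phosphate pathway, changed 2-fold, reading 18305 and 7051 (2.60-fold lower, probe sets at -1.38 and -1.39), and 1 of 13 is near the background of 8.53%. On the hybridization control scale 2 would be lower, beside 27.7% of all measured genes. With no filter 3 of the 16 genes on the array would be higher, beside 16.1% of all genes. With the filter at the 25th percentile 3 would also be higher, beside 13.2%.

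Of the 12 measured genes of heme and iron handling other than HMOX1, 2 passed 2-fold upward and 1 downward, beside 8.91% and 8.53% of all measured genes. Of the 12, 7 were above and 5 below 0, with a median of 0.04, beside 0.04 over all measured genes. On the hybridization control scale none would pass upward and 3 downward, beside 2.15% and 27.7% of all measured genes. BLVRA and BLVRB, the biliverdin reductases that act after heme oxygenase, were 2.26-fold and 2.13-fold higher, while FLVCR1, a heme exporter, was 2.27-fold lower. Neither reductase would reach 2-fold on the hybridization control scale, at 0.57 and 0.48, and BLVRB was also under 2-fold after loess, at 0.96. In a list of 24 other reported NRF2 targets, 20 were measured, 2 passed 2-fold upward and 3 downward, and the median was 0.13. The taurine transporter SLC6A6 was 3.98-fold higher and the carbonyl reductase CBR3 2.97-fold higher, while UGDH, which makes UDP-glucuronate, was 2.70-fold lower. ABCC2 and TRIM16, named after their values were seen, were 2.32-fold and 2.04-fold lower. The shares in that list, 2 and 3 of 20, are near the background of 8.91% and 8.53%, and on the hybridization control scale they would be 1 and 8 of 20, beside 2.15% and 27.7%. TRIM16 was under 2-fold after loess, at -0.92.

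SLC7A11 is also a target of ATF4, and so the ATF4 stress response was set beside it. Of its 14 measured genes 3 passed 2-fold upward and 4 downward, beside 8.91% and 8.53% of all measured genes, with ATF4 itself at -0.12. The amino acid transporter gene SLC7A5 was 2.74-fold lower, and ASNS, SLC1A5 and PSAT1, named after their values were seen, were 2.17-fold, 2.07-fold and 2.02-fold lower. DDIT4 was 2.67-fold, DDIT3 2.35-fold and ATF3 2.29-fold higher, ATF3 being named after its value was seen. On the hybridization control scale none of the 14 would pass 2-fold upward and 6 would downward, beside 2.15% and 27.7%. After loess DDIT4, at 0.96, and SLC1A5, at -0.97, were under 2-fold.

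**Figure D4:**
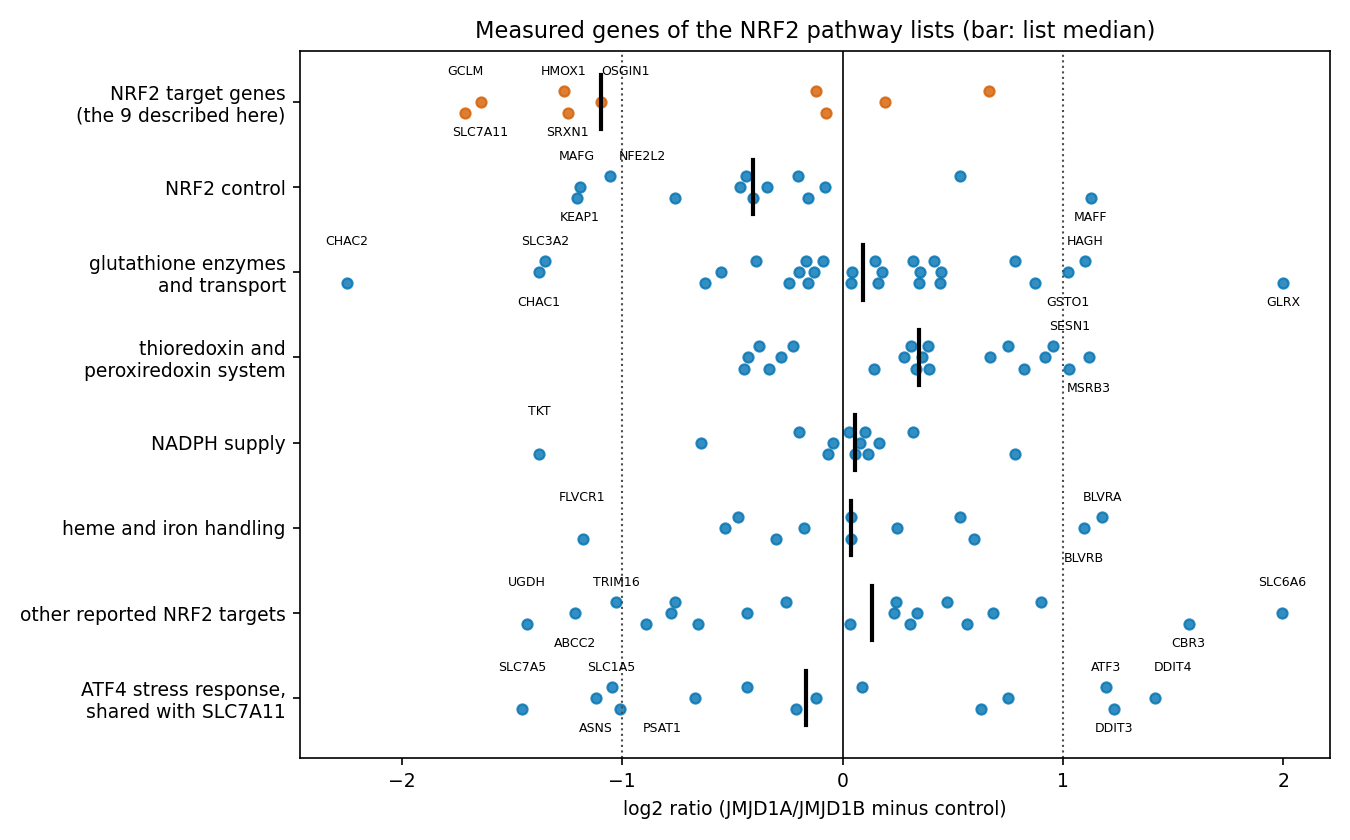
Each point is the log2 ratio of 1 measured gene, by its brightest probe set, for the 9 NRF2 target genes (orange) and the 7 pathway lists (blue). Black bars are list medians, dotted lines mark 2-fold, and genes changed at least 2-fold are named. The median of the 9 genes is -1.10, while the list medians run from -0.41 for NRF2 control to 0.35 for the thioredoxin and peroxiredoxin system on the deposited scale (on the hybridization control scale all 7 list medians would be below 0).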

How the data were processed

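Total RNA from HCT116 cells was measured on 2 one-colour arrays, 1 for each group, with groups taken from the labels. The authors deposited a linear intensity per probe set and array (54675 probe sets). Per the submitters' processing notes MAS5 was the tool. Its version and settings are not given in the sources used here. Leaving out the extreme 2% at either end, both arrays averaged 500.1, a sign of scaling by 1 factor per array, and that scaling was kept. Names came from the platform annotation (41091 with 1 symbol, 1801 with several and 11721 with none, the last 2 groups being left unnamed), and 41037 of those with 1 symbol matched the RefSeq gene table. The log2 of each signal was used without a pseudocount and filtered as the report states. A gene was called at 2-fold. With 1 array per group no test was run, and differences refer to these samples only. The siRNA sequences are not given in the sources used here. The settings varied were the scaling (4 others), a pseudocount of 32, the filter (4 others), the choice of probe set (2 others) and the threshold (1.5-fold and 3-fold). The text names the 9 genes, NFE2L2, KEAP1, BACH1, KDM3A and KDM3B, and up to 3 genes changed at least 2-fold in each pathway list (the largest changes, or 1 gene where none was), with additions stated where they occur. The genes, lists and rules were chosen with earlier results of these data known. Promoter windows came from RefSeq, and their orientation was checked by the frequency of TATAAA just before the start on each strand. Python 3.11.15, numpy 2.4.6, pandas 2.3.3 and statsmodels 0.14.6 (loess, span 0.3) were used. The procedure was also run on simulated data, as a check of the code only. Its planted changes were larger than 2-fold and its noise was below the probe-set SD, so it does not show how reliable the calls are here.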

Additional observations from a re-analysis of the deposited data

Results flagged for a closer look

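Probe set 211204_at of ME1 was left out of the comparison by the signal filter, yet it gave a signal above the filter of 50.4 on the JMJD1A/JMJD1B siRNA array, 73.2, against 7.15 on the control array. The measured ME1 probe sets had log2 ratios of -0.12 and -0.48. No cause was tested, and with 1 array per group there is no replicate to set beside it. Groups of 1 array allowed no search for outlying samples.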

How the results depend on the processing

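GCLM, SLC7A11, SRXN1 and HMOX1 were lower by 2-fold or more under every alternative that kept the 2-fold threshold. OSGIN1 was too, except with the pseudocount of 32 (-0.81) and with the filter at the 75th percentile, which removed it, so that 4 genes were lower in both cases. The shares of all measured genes lower by as much were 7.01% with the pseudocount and 8.71% with that filter. At 3-fold 2 genes, GCLM and SLC7A11, were lower in place of 5, beside 2.26% of all measured genes. With a 1.5-fold threshold 1 gene, TXNRD1, was higher in place of 0, beside 21.7% of all measured genes. The median of the 9 genes was -1.71 on the hybridization control scale against -1.10. It was under 2-fold with the pseudocount of 32, at -0.81. With the filter at the 75th percentile it was also under 2-fold, at -0.68 over the 8 genes left. No ratio of a called gene changed sign. Of 97 recomputed ratios of the 9 genes 88 moved by less than the probe-set SD, and the other 9 were those on that scale, by its construction. The same held for 144 of 161 ratios of their probe sets. Of 182 recomputed pathway counts, those at other thresholds included, 45 moved by more than 1.5 times or to or from 0. Of all 12561 measured genes, 1072 were lower and 1119 higher, against 3483 and 270 on the hybridization control scale. At 1.5-fold these counts were 2452 and 2723, and at 3-fold 284 and 287. With no filter they were 2504 and 3174 of 19775 genes. With the filter at the 25th percentile they were 1746 and 2192 of 16638, and at the 75th percentile 697 and 606 of 8004. Signal over background limits OSGIN1 and the dimmest probe sets of GCLM and SLC7A11. No paired analysis was possible because each group held 1 array.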
